A study of Mus musculus with 9 samples.

Results

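The 468 transcripts described here carry identifiers that begin with MSTRG, the prefix that the assembler StringTie gives by default to transcripts it builds from aligned reads. They were taken by that prefix from the 69547 long noncoding transcripts listed in each deposited table, of which 62343 had NONCODE and 6736 had Ensembl identifiers. The same 468 rows stood in the tables of all 9 libraries. Total RNA of the spinal cord of wild-type C57BL/6 mice aged 7 to 9 weeks was sequenced on day 7 in 3 groups of 3 libraries. The HBO group had a spinal cord injury and was given hyperbaric oxygen, that is, oxygen breathed above atmospheric pressure. The injury group had the spinal cord injury alone. The control group had no injury per the labels, while the series design calls it sham, so whether these animals were operated on is not settled. Nothing states that replicates were separate animals, and p-values measure the spread between libraries, which may be technical.

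An assembler joins reads that overlap or that skip an intron into transcript models, and a model that matches no known gene is kept under a number of its own. In total RNA from brain and spinal cord, reads from the introns of long genes are common, because unspliced precursor RNA is sequenced along with finished RNA. The introns of coding genes can also hold independent noncoding RNAs and microRNAs, whose hairpins are cut from the same precursor. The files give a start, an end and a length for each MSTRG transcript, but no strand and no exons, so a transcript inside an intron cannot be told apart from the precursor of its host gene by position.

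The sequences that RefSeq places within the spans of these transcripts show what some of them cover or skip, which the files cannot tell apart. MSTRG.60020.1 (chrX:147000879-147011430, GRCm38) lies in an intron of Htr2c, the serotonin 2C receptor gene, and its span contains 4 mature microRNAs of 3 hairpin genes on the plus strand. They are printed 5′ to 3′ from RefSeq (GRCm38.p6), with the seed, bases 2 to 8, in capitals. They were chosen because no other mature microRNA of the RefSeq table was found within the spans searched. The search left out some of the 468 transcripts, so microRNAs within those are not known.
mmu-miR-764-5p: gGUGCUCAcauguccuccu
mmu-miR-764-3p: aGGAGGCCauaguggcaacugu
mmu-miR-1912-3p: cACAGAACaugcagugagaacu
mmu-miR-1264-3p: cAAAUCUUauuugagcaccugu
No seed was shared among the 4. Mature microRNAs themselves were not measured.

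Of the 468 transcripts, 15 overlapped a RefSeq promoter window, taken as 250 bases before to 50 after a start site. MSTRG.15684.1 (chr13:120010294-120026191) and MSTRG.15682.1 (chr13:120042872-120052190) each had an end close to a start site, 48 bases from that of Gm36161 on the plus strand and 14 bases from that of Gm21188 on the minus strand. Both windows are printed because these transcripts were among the largest differences of HBO from control and because the windows are near copies of each other. The longest run of A is in capitals.
Gm36161 promoter, chr13:120010092-120010391, plus strand: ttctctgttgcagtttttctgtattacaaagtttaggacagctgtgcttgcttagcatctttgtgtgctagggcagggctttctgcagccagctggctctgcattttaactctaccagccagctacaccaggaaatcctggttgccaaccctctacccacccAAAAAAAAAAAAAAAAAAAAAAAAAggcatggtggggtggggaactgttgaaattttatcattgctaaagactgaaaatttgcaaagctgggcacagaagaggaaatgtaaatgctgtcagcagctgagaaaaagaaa
Gm21188 promoter, chr13:120052155-120052454, minus strand: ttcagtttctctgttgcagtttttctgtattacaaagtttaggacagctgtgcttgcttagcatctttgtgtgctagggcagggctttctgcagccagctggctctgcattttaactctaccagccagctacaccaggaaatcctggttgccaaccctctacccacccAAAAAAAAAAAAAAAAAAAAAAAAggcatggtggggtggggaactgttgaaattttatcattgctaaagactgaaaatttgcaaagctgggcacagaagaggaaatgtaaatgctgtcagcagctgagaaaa
Aligned end to end, the windows had 294 identical bases, 0 mismatches and 12 gap positions. The run of A was 25 bases long at Gm36161 and 24 at Gm21188. Reads from such copies can be split between them, so the values of both transcripts are uncertain.

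The most abundant of the 468, MSTRG.6282.1 (chr10:96069914-96077813), had within its span 1 exon of the unitary pseudogene AC115970.1, exon 7 of 14 in GENCODE M21. The exon is 100 bases long, and the transcript lists 405 bases and lacks 7495 of its span. The exon is printed as the annotated exon within that span, and whether it belongs to the 405 listed bases is not known, since the files give no exons.
AC115970.1 exon 7, chr10:96075736-96075835, minus strand: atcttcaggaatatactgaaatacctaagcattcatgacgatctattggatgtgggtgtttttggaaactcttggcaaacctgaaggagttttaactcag

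All 468 transcripts had a listed length below their genomic span, as a spliced transcript does. This held for 28.7% of NONCODE and 63.8% of Ensembl transcripts in the same tables. The missing part was small in most cases, with a median of 647.5 bases. It was under 100 bases in 64 transcripts, 100 to 200 in 75, 200 to 1000 in 140, 1000 to 10000 in 172 and at least 10000 in 17. The median MSTRG transcript thus listed 83.2% of its span, against 25.2% for the NONCODE and 16.3% for the Ensembl transcripts that were shorter than their span. Among the 3 longest, MSTRG.10196.22 in Prkca listed 18523 bases and lacked 68 bases of its span, MSTRG.45567.2 in Lrrtm4 listed 17873 and lacked 66, and MSTRG.6206.2 in Cdk17 listed 22715 and lacked 1118. A listed length that nearly fills the span is a description of the models, and splice sites were not examined.

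The MSTRG transcripts were longer than the other listed transcripts and had higher levels per length. Their median length was 3221 bases (quartiles 1541 and 6065.5, range 213 to 22715), against 1295 bases for NONCODE and 1316.5 bases for Ensembl transcripts. The median of the mean FPKM, the deposited value per length and library total, was 2.12 with quartiles of 1.64 and 2.74, against 0.238 for NONCODE and 0.224 for Ensembl transcripts. In CPM, the listed counts scaled to a common library size, 461 of 468 (98.5%) averaged at least 1 CPM, against 58.5% of NONCODE and 54.5% of Ensembl transcripts. Counts were above 0 in every library for 414 transcripts, and 3 had 0 counts in all 9. Assembled models are built from reads, while NONCODE and Ensembl entries come from catalogues whether or not they are read here. The comparison of levels is therefore not one between like sets.

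**Figure D1:**
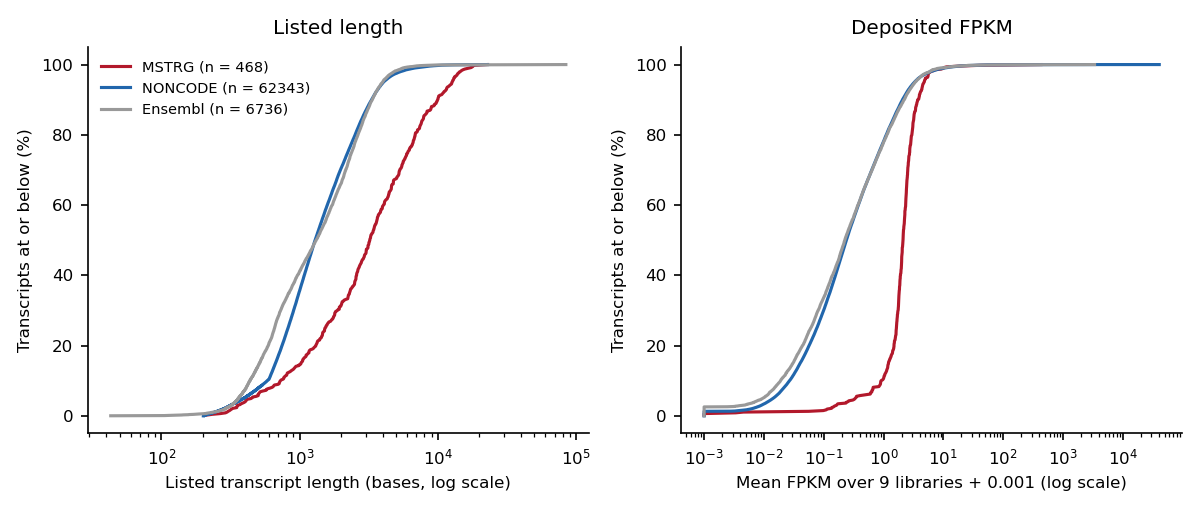
Cumulative share of transcripts (%) by listed length in bases (left) and by mean deposited FPKM over 9 libraries plus 0.001 (right), both on log axes, for MSTRG, NONCODE and Ensembl transcripts. The MSTRG curve lies to the right in both panels, with medians of 3221 bases and 2.12 FPKM, and is the steepest of the 3 in FPKM.

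Most of them lay in introns of long coding genes. By whole span and without strand, 397 (84.8%) were inside an intron of a GENCODE M21 coding gene, 27 touched an exon of one, 22 overlapped only a noncoding gene or pseudogene and 22 overlapped no annotated gene. In all 90.6% overlapped a coding gene, against 39.9% of NONCODE and 56.4% of Ensembl transcripts. The 339 host genes had a median span of 123.5 kb, against 17.32 kb over 22028 coding genes, and 59.6% of hosts were longer than 100 kb, against 11.3% of all coding genes. Host spans of NONCODE and Ensembl transcripts inside introns were not computed, so long hosts are not shown to be particular to MSTRG transcripts. Magi2, a scaffold protein gene of synapses, held 7 of the transcripts. Cntnap2, Macf1, Pcdh9 and Phf20 held 4 each. Counted from the 5′ end of the host, the transcripts sat at a median of 30.2% of its length, with quartiles of 12.8% and 51.5%.

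The MSTRG transcripts took 2.91 ± 0.253% of the listed counts in HBO cords, 2.65 ± 0.196% in injury cords and 2.85 ± 0.184% in control cords (SD, n = 3 each). The listed counts themselves were 2295433 to 3148744 per library, 17.1% to 19.5% of each library's total as worked back from its FPKM. By 2-sided exact permutation tests the share gave p = 0.3 for injury against control, p = 0.3 for HBO against injury and p = 0.7 for HBO against control, where 0.1 is the smallest value that 3 against 3 libraries can give. Of a list of 11 noncoding genes chosen as a check of neural tissue and its caudal position, 10 were listed and 9 had counts in every library. Hotair did not, and Snhg11 was not among the rows.

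The most abundant MSTRG transcript stood far above the rest. MSTRG.6282.1 had 993, 945 and 588 CPM in HBO libraries 1 to 3, 978, 941 and 912 CPM in injury libraries and 1064, 765 and 1173 CPM in control libraries. The groups overlapped, and HBO replicate 3 was the lowest of the 9. Per length it averaged 429.7 FPKM, the highest of the 468.

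The other most abundant transcripts lay in introns of coding genes. By mean CPM they were MSTRG.17616.31 in Pcdh9 (600.6), a protocadherin, MSTRG.10196.22 in Prkca (446.6), protein kinase C alpha, MSTRG.38009.32 in Slc24a2 (406.6), a sodium, calcium and potassium exchanger, and MSTRG.40459.2 in Magi2 (388.6). MSTRG.56011.1 in Ncam1 (369.3), the neural cell adhesion molecule, MSTRG.28979.1 in Plxdc2 (333.3), MSTRG.45567.2 in Lrrtm4 (315.1), MSTRG.29074.1 in Nebl (308.7) and MSTRG.14222.3 in Spock1 (287.5) followed. CPM is not scaled by length, and these are long models, so the order is one of read numbers and not of molecules.

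Injury against control asks how the injured cord differs from the uninjured one. The transcripts called lower in injured cord lay in introns of Rnf157, Nrg3, Htr2c, Grm5, Akap6, Lrrtm4, Fgf12, Cntnap2, Sgcz, Edil3 and Dpp6 and over A930017M01Rik. Each was lower by less than 2-fold under TMM scaling, with log2 changes of -0.98 to -0.79. Those called higher included transcripts in Cyth4, where an exon but no coding sequence is touched, and in introns of Ptprb, Fndc3b, Ano6 and Atg7. The calls that rose outnumbered those that fell under TMM scaling. Of the 429 transcripts that passed the filter on low counts, 45 (10.5%) were called at an adjusted p under 0.05, 32 higher and 13 lower. Over all 26602 features tested, 6.06% were called, 3.63% higher and 2.43% lower. The remaining 39 transcripts were not tested. Calls throughout are from the quasi-likelihood test of edgeR, adjusted over all features by the Benjamini-Hochberg method. Its fold changes use TMM scaling, with mean factors of 0.932 for injury, 1.06 for control and 1.02 for HBO libraries. They therefore differ from the ratios of CPM. In injury against control the scaling shifts them upward, so increases are larger and decreases smaller than by CPM. Fewer cells of a type and less RNA per cell cannot be told apart in these bulk samples.

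The median log2 change over the 429 was 0.24, against 0.01 over all features. When libraries were scaled by their FPKM-derived totals and not by TMM, the median of all features was -0.21, the MSTRG median was 0.01, and 15 transcripts were called higher and 23 lower. That is 8.86% of the MSTRG transcripts, against 7.45% of all features under the same scaling, a smaller gap than under TMM. The direction of the majority of calls therefore differs between these scalings. Of the 45 called under TMM, 28 were still called with FPKM-derived totals. A change of at least 2-fold was called for 15 transcripts, all higher, where 2.88% of all features were higher and 1.38% lower by this rule.

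The 13 lower transcripts had log2 changes of -0.98 to -0.79, and 12 of them lay in introns of coding genes. MSTRG.60020.1 in Htr2c, which spans the microRNAs printed above, had 96.2, 61.4 and 120 CPM in HBO cords, 54.6, 79.7 and 91.8 CPM in injury cords and 160, 196 and 132 CPM in control cords. All injury libraries lay below all control libraries, as did all HBO libraries. Such separation, here and below, comes from the same values as the calls and is no further support for them. Of the 429, called or not, 81 (18.9%) lay wholly lower and 92 (21.4%) wholly higher in injury than in control by CPM. The share over all features is not given here. MSTRG.60020.1 was called in this comparison. It fell by 0.94 on the log2 scale in injury against control (SE 0.23, adjusted p = 0.0493, edgeR).

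MSTRG.49384.1 in Grm5, the metabotropic glutamate receptor 5 gene, had 31.8, 28.8 and 37.9 CPM in HBO cords, 17.8, 35.4 and 35.1 CPM in injury cords and 66.1, 63.6 and 55.8 CPM in control cords. It fell by 0.91 (SE 0.22, adjusted p = 0.0485, edgeR), and the injury and control libraries did not overlap. MSTRG.45567.2 in Lrrtm4, which encodes a leucine-rich protein of excitatory synapses, had 263, 218 and 343 CPM in HBO cords, 173, 239.5 and 246 CPM in injury cords and 459.9, 494 and 398 CPM in control cords. It fell by 0.86 (SE 0.16, adjusted p = 0.0275, edgeR). A second transcript in the same gene, MSTRG.45566.2, fell by 0.88 (SE 0.20, adjusted p = 0.0418, edgeR). Both Lrrtm4 transcripts share the host and are not independent of each other.

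MSTRG.44912.17 in Cntnap2, a neurexin-like protein that clusters potassium channels on axons, had 209.7, 176 and 262 CPM in HBO cords, 139.7, 176 and 229 CPM in injury cords and 384, 404 and 323 CPM in control cords. It fell by 0.86 (SE 0.17, adjusted p = 0.0293, edgeR), with no overlap between injury and control. MSTRG.40689.1 in Dpp6, a subunit of neuronal potassium channels, fell by 0.79, and MSTRG.21127.1 in Fgf12, an intracellular modulator of sodium channels, by 0.88. MSTRG.16545.6 in Nrg3, a neuregulin that binds ErbB4, fell by 0.96.

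MSTRG.10423.1 in Rnf157, a RING ubiquitin ligase gene of brain, had 19.8, 17.1 and 21.8 CPM in HBO cords, 10.2, 13.3 and 14.5 CPM in injury cords and 25.8, 31.99 and 26.8 CPM in control cords. It had the largest decrease of the 13, by 0.98 (SE 0.17, adjusted p = 0.0231, edgeR), and each HBO library lay between the injury and the control libraries. MSTRG.11689.1 in Akap6, an anchor of protein kinase A, fell by 0.88. MSTRG.52058.1 in Sgcz, a sarcoglycan, fell by 0.83. MSTRG.18934.1, over the transcribed pseudogene A930017M01Rik on chromosome 15, fell by 0.94 with 29.2, 30.7 and 29.6 CPM in injury cords and 65.7, 72.6 and 56.5 CPM in control cords.

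MSTRG.15015.1 in Edil3, a secreted integrin-binding matrix protein, was the one of these 13 whose HBO libraries overlapped control. It had 36.2, 28.4 and 43.6 CPM in HBO cords, 19.1, 13.97 and 22.8 CPM in injury cords and 34.2, 45.0 and 33.1 CPM in control cords. The injury libraries lay below all 6 others, and HBO and control overlapped. It fell by 0.83 in injury against control (SE 0.20, adjusted p = 0.0466, edgeR). Its difference between HBO and injury, given below, uses the same injury libraries and is not independent of this one.

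The levels of noncoding genes known from neural tissue are given beside these results, and their part in them was not tested. The 7 listed of 8 on that list (Meg3, Miat, Rian, Mir124a-1hg, Pantr1, Rmst and Sox2ot) summed to 4140 to 5100 CPM in HBO cords, 3790 to 5200 CPM in injury cords and 7090 to 8530 CPM in control cords, most of it Meg3. Without Meg3 the sums were 1230 to 1500 CPM in HBO cords, 1080 to 1390 CPM in injury cords and 1740 to 2110 CPM in control cords. Most of that was Rian, with means of 827, 719 and 1290 CPM. Sox2ot was level, with means of 248, 249 and 251 CPM. Its log2 change was 0.16 in injury and 0.04 in HBO against control, and that of Miat was 0.08 in HBO against control. The other log2 changes on the list were below 0 in both comparisons, as was that of Miat in injury against control (-0.50). Of the 7, 1 (Rian) was called lower and none higher in injury against control, and 3 (Meg3, Mir124a-1hg and Rian) were called lower and none higher in HBO against control by edgeR.

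The 32 higher transcripts had log2 changes of 0.51 to 4.24. The largest was MSTRG.36826.1, 486 bases long in no annotated gene on chromosome 4 and 23622 bases from Tmem64, with 3.66, 13.6 and 10.5 CPM in HBO cords, 18.1, 19.4 and 8.68 CPM in injury cords and 0.760, 0 and 1.74 CPM in control cords. It rose by 4.24 (SE 0.78, adjusted p = 0.0271, edgeR), and the control libraries held few counts of it. MSTRG.42689.1 in Ssh1, a phosphatase that activates the actin-severing protein cofilin, had 6.95, 17.9 and 2.61 CPM in HBO cords, 17.5, 10.9 and 11.2 CPM in injury cords and 0.760, 2.16 and 1.39 CPM in control cords. It rose by 3.37 (SE 0.73, adjusted p = 0.0369, edgeR), and the HBO libraries were uneven. Its span overlaps coding sequence.

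MSTRG.19482.1 in Cyth4, a cytohesin of blood and immune cells that activates ARF GTPases, had 28.2, 42.0 and 42.7 CPM in HBO cords, 36.8, 43.6 and 30.4 CPM in injury cords and 12.2, 9.51 and 7.67 CPM in control cords. All 6 injured libraries lay above all control libraries. It rose by 2.10 (SE 0.26, adjusted p = 0.0145, edgeR). MSTRG.6615.1 in Ptprb, a receptor phosphatase of endothelial cells, rose by 1.79 (SE 0.34, adjusted p = 0.0274, edgeR), with 14.9, 9.88 and 18.1 CPM in injury cords and 2.66, 6.48 and 4.88 CPM in control cords.

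MSTRG.33589.16 in Fndc3b, a membrane protein gene with fibronectin type III repeats, had 177, 243 and 198 CPM in HBO cords, 243, 178 and 178 CPM in injury cords and 80.9, 93.4 and 77.4 CPM in control cords. It rose by 1.45 (SE 0.22, adjusted p = 0.0184, edgeR), and neither injured group overlapped control. MSTRG.27037.1 in Zfp516 rose by 1.46, MSTRG.19823.1 in Tbc1d22a by 1.38 and MSTRG.39253.8 in Man1c1, a Golgi mannosidase, by 1.31. In each of them every injury library lay above every control library.

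Further transcripts called higher are given here, named after their values were seen. MSTRG.12632.1 in Kcnk13, a potassium channel of microglia, had 199, 204 and 226 CPM in HBO cords, 219, 201 and 206 CPM in injury cords and 125, 152 and 141 CPM in control cords, and rose by 0.77 (SE 0.14, adjusted p = 0.0271, edgeR). MSTRG.10196.22 in Prkca, the most abundant of those called, had 519, 518 and 551 CPM in HBO cords, 477, 478 and 470.1 CPM in injury cords and 285, 387 and 335 CPM in control cords. It rose by 0.69 (SE 0.14, adjusted p = 0.0329, edgeR), and neither group overlapped control. With library totals from FPKM it rose by 0.46 and was not called (adjusted p = 0.0830, edgeR). MSTRG.46425.1 in Atg7, an enzyme of autophagy, rose by 0.99, MSTRG.20083.1 in Ano6, a phospholipid scramblase, by 0.95, and MSTRG.17350.7 in Rb1, the retinoblastoma gene, by 0.69. Transcription factor genes were also hosts: Mitf (0.85), Elf1 (0.95), Creb3l2 (1.08) and Zbtb20 (0.67), given as the log2 changes of the called transcripts MSTRG.46164.11, MSTRG.17532.1, MSTRG.44673.2 and MSTRG.21455.1. The 2 called transcripts in Gpc6, a glypican, rose by 1.14 (MSTRG.17867.1) and 0.76 (MSTRG.17879.1). The smallest called increase, 0.51 (SE 0.13, adjusted p = 0.0486, edgeR), was that of MSTRG.6206.2 in Cdk17, the longest of the 468, with 275, 325 and 347 CPM in HBO cords, 288, 302 and 323 CPM in injury cords and 234, 266 and 227 CPM in control cords.

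**Figure D2:**
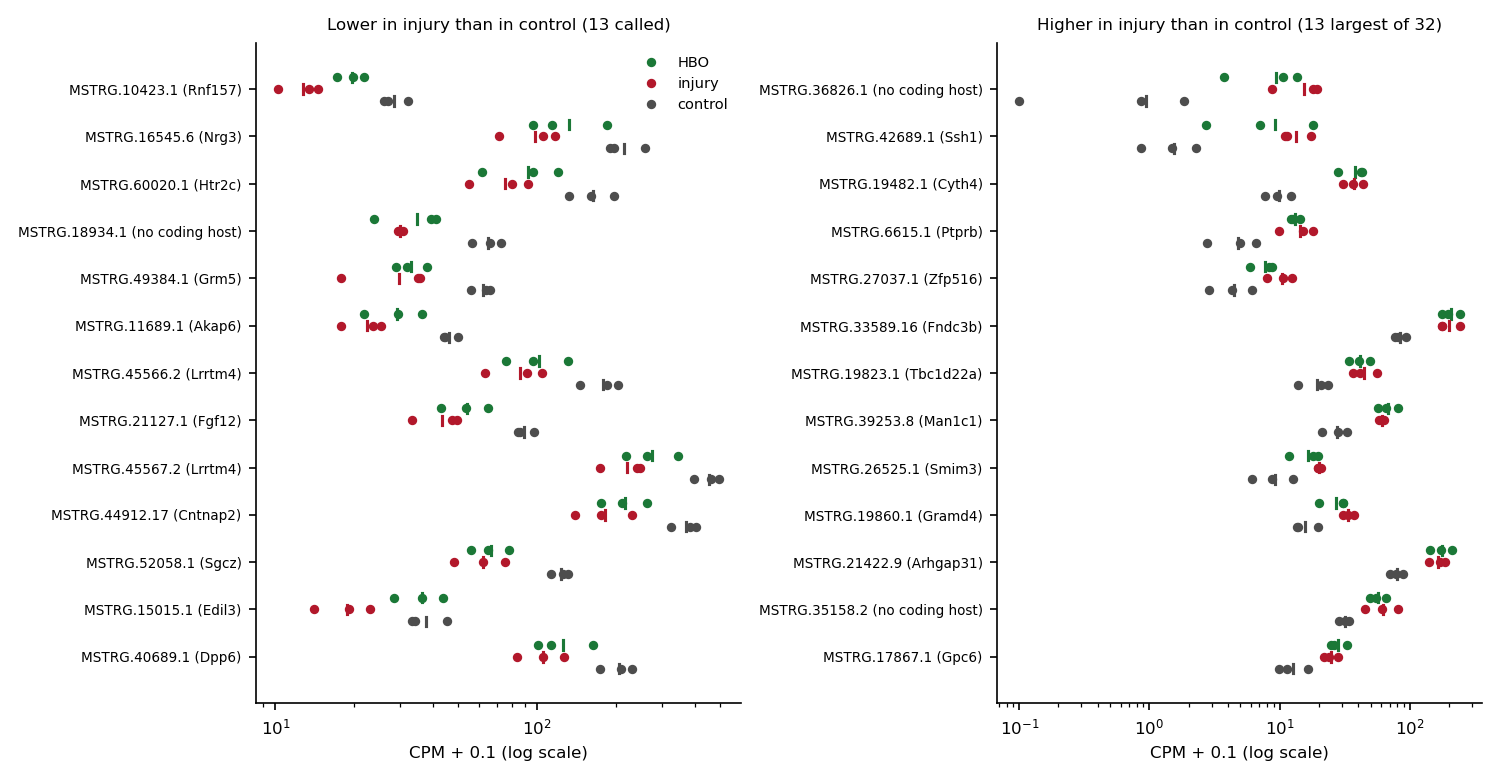
CPM plus 0.1 (log axis) of the 13 transcripts called lower and the 13 with the largest increase among the 32 called higher in injury against control. Points are the 3 libraries of HBO, injury and control, vertical bars are group means, and host genes are in brackets. For MSTRG.10423.1 in Rnf157 the HBO points lie between the injury and control points, and for MSTRG.15015.1 in Edil3 they lie at 28.4 to 43.6 CPM, over the control values of 33.1 to 45.0 CPM.

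By position, the calls in injury against control were 26 higher and 12 lower of 368 tested in introns. Of 25 touching an exon of a coding gene, 4 were higher and 0 lower. Of 19 over noncoding genes only, 0 were higher and 1 lower, and of 17 in no gene, 2 were higher and 0 lower. The hosts of the lower transcripts were longer. Their median span was 692 kb (76.7 to 2245 kb, 12 transcripts with a host), against 115 kb (24.97 to 1051 kb, 30 transcripts) for the higher ones and 133 kb for those not called, and this difference was not tested.

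The number of calls varied with the library left out, among these transcripts and over all features. Refitted with a single library left out, 28, 51 and 32 transcripts were called when HBO replicate 1, 2 or 3 was missing, 2, 5 and 18 when injury replicate 1, 2 or 3 was, and 2, 0 and 8 when control replicate 1, 2 or 3 was. None of the 45 changed direction in any of 17 alternative settings. These settings reuse the libraries on which the calls were selected, so a reversal was hardly possible and its absence is no support. The number of the 45 still called ranged from 0 to 45 over the settings. DESeq2 called 96, among them all 45.

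Each host gene offered a second reading of the same libraries, the summed counts of its other listed transcripts. The 12 lower transcripts with such a sum lay in 11 hosts, since both Lrrtm4 transcripts share a sum. All 12 had a lower sum, where 48.6% of all 7020 host sums were lower. For 10 of the 12 the sum was called lower by edgeR, where 5.66% of host sums were. The shares over all host sums, here and below, were not matched for host length or counts. Of 24 higher transcripts with a sum, in 23 hosts, 20 had a higher sum. It was called for 7 of these, where 6.28% of host sums were called higher. Over all 344 tested transcripts with a sum, in 287 hosts, 244 had a sum of the same sign, called for 72. The sum for Htr2c fell by 1.43 (SE 0.29, adjusted p = 0.0216, edgeR) and that for Grm5 by 1.12 (SE 0.22, adjusted p = 0.0206, edgeR). The sum for Fndc3b rose by 1.38 (SE 0.22, adjusted p = 0.0152, edgeR) and that for Ptprb by 1.27 (SE 0.34, adjusted p = 0.0443, edgeR). The sum for Ssh1 had a log2 change of -1.44 and was not called (adjusted p = 0.209, edgeR), opposite in sign to its MSTRG transcript.

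Where the sums left out every listed transcript that touched an exon of a coding gene, 3746 hosts had one. Then 11 of 12 lower transcripts, again in 11 hosts, had a lower sum, called for all 11, with Rnf157 as the exception. Of all such sums 47.7% were lower and 12.2% were called lower. Of 22 higher transcripts, in 21 hosts, 21 had a higher sum, called for 10 of them, where 12.1% of sums were called higher. Over all 303 tested transcripts with an intronic sum, in 249 hosts, 227 had the same sign as it, and the sum was called for 107. Pearson's r was 0.374 across transcripts, which share libraries and in part hosts and are not independent replicates. In HBO against control, all 15 higher and all 3 lower transcripts with an intronic sum had a sum of the same sign, of which 9 and 3 were called, where 10.8% of such sums were called higher and 10.3% lower.

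**Figure D3:**
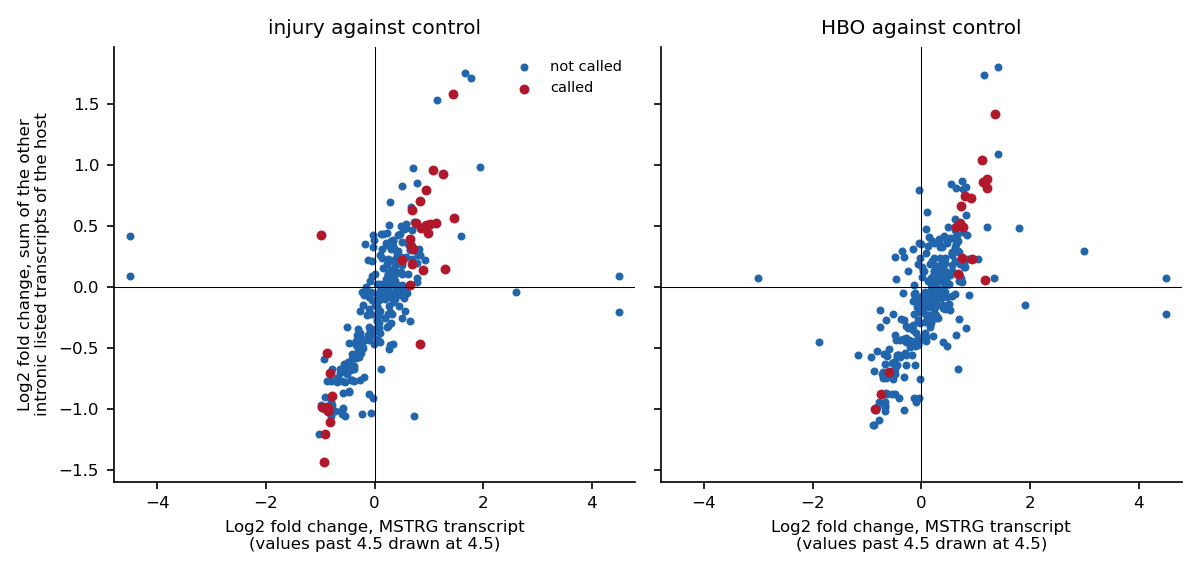
Log2 fold change of each tested MSTRG transcript (x axis, values past 4.5 drawn at 4.5) against that of the sum of its host gene's other intronic listed transcripts (y axis), for injury against control and HBO against control. Red points were called, and the called lower transcripts lie in the lower left quadrant except Rnf157 in injury against control.

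HBO against injury asks what oxygen treatment changed in the injured cord. None of the 429 transcripts passed by edgeR or DESeq2, where 0.015% of all features were called, and 9 had an unadjusted p under 0.05 (2.10%, against 3.63% of all features). The median log2 change was -0.01. This comparison and injury against control use the same injury libraries, so their results are not independent of each other. The smallest unadjusted p belonged to MSTRG.15015.1 in Edil3, whose libraries are given above. Its log2 change was 0.82 (SE 0.20, unadjusted p = 0.00262, adjusted p = 1.0, edgeR), and all 3 HBO libraries lay above all 3 injury libraries.

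The next transcripts by p rested on uneven libraries. MSTRG.40567.2 in Kmt2e, a gene of a chromatin-associated SET domain protein, had 98.1, 101.4 and 0 CPM in HBO cords, 0.318, 0 and 0 CPM in injury cords and 74.0, 20.3 and 0 CPM in control cords (unadjusted p = 0.00818, adjusted p = 1.0, edgeR). MSTRG.56153.2, 353 bases long in Peak1, a pseudokinase gene, had 9.15, 38.1 and 231 CPM in HBO cords, 13.3, 9.54 and 6.15 CPM in injury cords and 6.08, 12.1 and 15.3 CPM in control cords (unadjusted p = 0.0111, adjusted p = 1.0, edgeR). Its log2 change of 3.001 was 1.20 without HBO replicate 3. Neither group pair was cleanly apart, since an HBO library lay within the range of the injury libraries in each case.

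**Figure D4:**
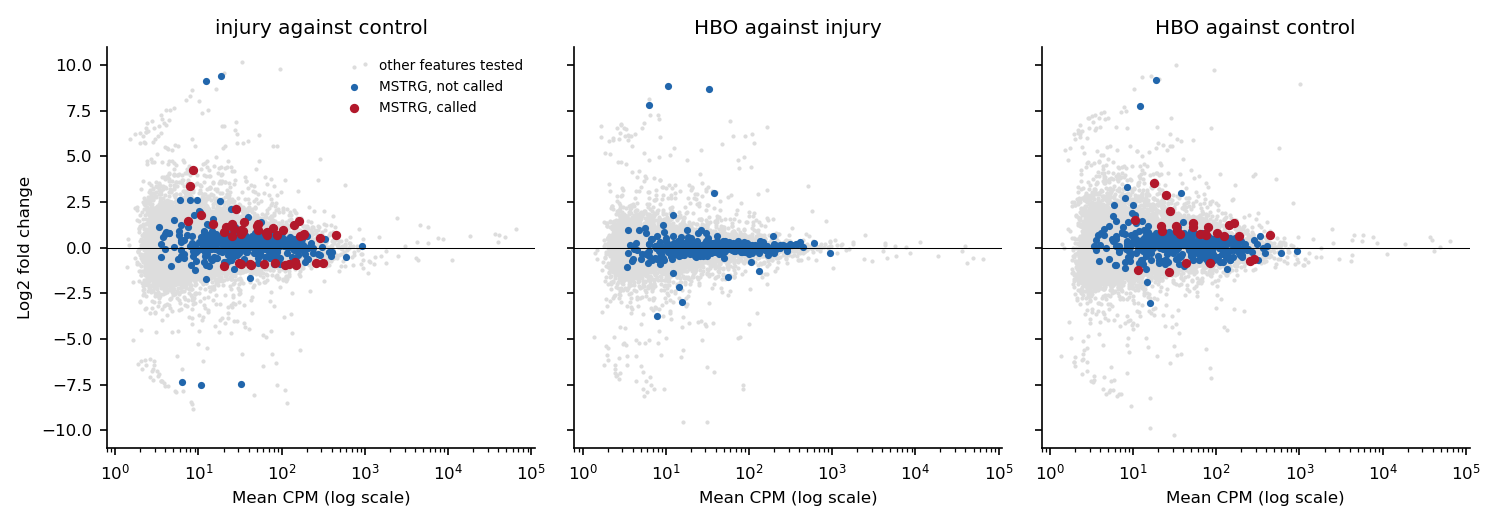
Log2 fold change against mean CPM (log axis) for injury against control, HBO against injury and HBO against control. Grey points are the other features tested, blue and red points are MSTRG transcripts not called and called, 45, 0 and 27 of 429 being called in these comparisons.

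HBO against control gave 27 called transcripts (6.29%), 21 higher and 6 lower, against 4.29% of all features (2.9% higher and 1.39% lower). Scaled by FPKM-derived totals, 9 were higher and 7 lower (3.73%, against 3.14% of all features). This comparison and injury against control use the same control libraries, so their calls are not independent of each other. With 1 library missing, 16, 0 and 7 were called for HBO replicate 1, 2 or 3, 23, 1 and 7 for injury replicate 1, 2 or 3, and 0, 0 and 3 for control replicate 1, 2 or 3. The shares of all features called in these refits are not given here.

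The largest increases were at the paired sites on chromosome 13 whose promoters are printed above. MSTRG.15682.1 had 12.8, 42.0 and 50.1 CPM in HBO cords, 17.5, 18.1 and 12.3 CPM in injury cords and 3.42, 0 and 5.23 CPM in control cords. It rose by 3.53 in HBO against control (SE 0.76, adjusted p = 0.0414, edgeR). MSTRG.15684.1 had 18.7, 61.4 and 54.0 CPM in HBO cords, 28.3, 26.6 and 14.5 CPM in injury cords and 11.01, 5.19 and 2.09 CPM in control cords, and rose by 2.92 (SE 0.62, adjusted p = 0.0390, edgeR). Control was the lowest group at both, and HBO replicate 1 was far below HBO replicates 2 and 3. The log2 changes in injury against control were 2.56 and 2.12, and neither was called (adjusted p = 0.0746 and 0.0681, edgeR).

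The transcripts in Cyth4, Ptprb, Fndc3b, Man1c1 and Arhgap31 rose in HBO against control by 1.99, 1.53, 1.36, 1.36 and 1.22 (MSTRG.19482.1, MSTRG.6615.1, MSTRG.33589.16, MSTRG.39253.8 and MSTRG.21422.9). Arhgap31 encodes a GTPase-activating protein for Rac and Cdc42. MSTRG.17867.1 in Gpc6 rose by 1.20. Among those called in HBO against control and not in injury against control, MSTRG.34143.1 in Foxo1, a forkhead transcription factor, had 28.5, 29.5 and 27.9 CPM in HBO cords, 21.6, 27.3 and 19.5 CPM in injury cords and 13.7, 17.7 and 16.0 CPM in control cords. It rose by 0.91 (SE 0.20, adjusted p = 0.0436, edgeR), and the difference between HBO and injury did not pass. MSTRG.29206.1 in Abi1, an adaptor of the actin-regulating WAVE complex, had 64.8, 82.0 and 96.3 CPM in HBO cords, 58.4, 61.0 and 63.6 CPM in injury cords and 51.6, 47.1 and 47.7 CPM in control cords. It rose by 0.77 (SE 0.16, adjusted p = 0.0371, edgeR), with HBO above injury and injury above control in every library.

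The 6 lower transcripts included 2 of the 6 listed models numbered MSTRG.49117, which lie over Snhg14 and small nucleolar RNA genes on chromosome 7. Snhg14 is a long noncoding RNA that runs antisense to Ube3a, the Angelman syndrome gene, and hosts small nucleolar RNAs in its introns. MSTRG.49117.113 had 21.2, 12.4 and 18.3 CPM in HBO cords, 14.3, 24.2 and 15.9 CPM in injury cords and 60.0, 35.5 and 40.8 CPM in control cords. It fell by 1.35 in HBO against control (SE 0.31, adjusted p = 0.0451, edgeR), and its log2 change in injury against control was -1.15 (adjusted p = 0.0548, edgeR). MSTRG.49117.214 fell by 1.22 (SE 0.29, adjusted p = 0.0485, edgeR). The 6 models summed to 75.7, 43.9 and 64.9 CPM in HBO cords, 42.9, 74.95 and 56.1 CPM in injury cords and 135, 99.9 and 122 CPM in control cords, and the libraries of both injured groups lay below those of control. The sum was not called in HBO against control (adjusted p = 0.0788, edgeR) or in injury against control (adjusted p = 0.0785, edgeR). The others called lower were in Sgcz (-0.85), Cntnap2 (-0.74), Spock1 (-0.60) and A930017M01Rik (-0.86), as log2 changes. Spock1 encodes testican, a proteoglycan of neural tissue, and its transcript MSTRG.14222.3 had 221, 211 and 287 CPM in HBO cords, 215, 255 and 279 CPM in injury cords and 394, 396 and 329 CPM in control cords.

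In 29 of 40 loci with several MSTRG models, at least 1 model had 0 counts in some replicate and many in another of the same group. The 468 transcripts carry 417 gene numbers, and the loci with several models are those with more than 1 transcript per number, while 84 transcripts overlap another MSTRG transcript. A transcript was counted as switching where it had 0 counts in 1 library and at least 10 CPM in another library of the same group. This was so for 41 transcripts, 39 of the 84 that overlap another one (46.4%) and 2 of the 384 that do not (0.521%), MSTRG.19400.1 at Scrt1 and MSTRG.19524.16 over Gm10863. Among other listed transcripts that reached 10 CPM in some library, 805 of 19601 (4.11%) switched, against 9.38% of 437 MSTRG transcripts that did.

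The summed counts of a locus did not switch in any of the 40. In Kmt2e the 3 models of MSTRG.40567 summed to 98.1, 101.4 and 111 CPM in HBO cords, 93.4, 83.1 and 104 CPM in injury cords and 93.8, 51.0 and 92.4 CPM in control cords. All of HBO library 3 was on MSTRG.40567.1 and all of HBO libraries 1 and 2 was on MSTRG.40567.2, and the log2 change of the sum in HBO against injury was 0.02 (SE 0.25, adjusted p = 1.0, edgeR).

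In Phf20, MSTRG.32394.14 had 53.4, 25.7 and 0.436 CPM in HBO cords, 34.9, 8.18 and 46.3 CPM in injury cords and 0 counts in all 3 control libraries. It was the only MSTRG transcript with 0 counts in a whole group and at least 10 counts in every library of another. The 3 models of its locus summed to 53.4, 51.3 and 52.3 CPM in HBO cords, 41.9, 62.7 and 46.3 CPM in injury cords and 37.6, 29.4 and 33.1 CPM in control cords. This sum leaves out MSTRG.32395.1, which overlaps all 3 models under another gene number. The sum had a log2 change of 0.76 in injury against control and was not called (adjusted p = 0.0567, edgeR).

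**Figure D5:**
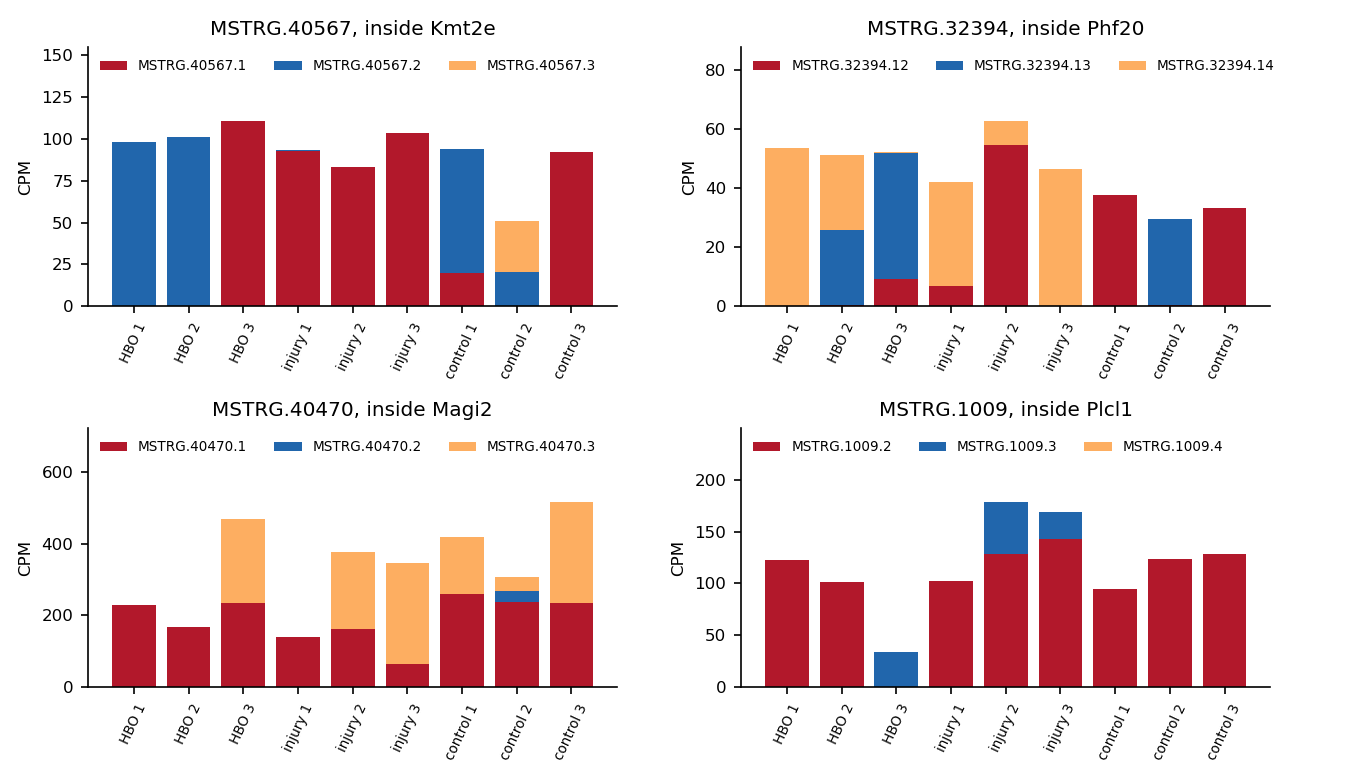
CPM per library of the models of 4 MSTRG gene numbers, stacked, for HBO, injury and control libraries. In Kmt2e the total stays between 51.0 and 111 CPM while the model that holds it changes between libraries, and in Plcl1 and Magi2 totals range from 34.0 to 179 and from 140 to 516 CPM.

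The locus of MSTRG.40470 in Magi2 averaged 288.3 ± 158 CPM in HBO cords, 288.0 ± 129 CPM in injury cords and 414 ± 104 CPM in control cords (SD, n = 3 each), and was not called (adjusted p = 0.588 in injury against control, edgeR). The 3 models of MSTRG.38892 in Macf1, a giant linker of actin and microtubules, averaged 185 ± 23.2 CPM in HBO cords, 177 ± 7.05 CPM in injury cords and 145 ± 10.7 CPM in control cords, with a log2 change of 0.46 in injury against control that was not called (adjusted p = 0.0637, edgeR). Only 1 of the 57 tested transcripts that overlap another MSTRG transcript was called in injury against control, and 44 of the 372 that do not. With MSTRG transcripts summed per gene number, 46 of 404 loci tested (11.4%) were called in injury against control, against 6.25% of all features. In HBO against control 26 were called, where the share of all features is not given here.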

How the data were processed

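Spinal cord total RNA of 9 mouse samples was measured by RNA sequencing. The submitters' processing notes name HISAT2 and GRCm38. Not given in the sources used here are the HISAT2 version, assembler, counter and strand setting. Each library's table, per the file headers, gives a whole-number count and an FPKM value for every long noncoding transcript, as deposited by the authors. Counts were used as deposited, with Ensembl transcripts summed per gene name (67924 features). All 9 libraries entered one fit by group in edgeR 4.0.16 (filterByExpr with a minimum count of 10, TMM, glmQLFit and glmQLFTest, R 4.3.3), and a Benjamini-Hochberg adjusted p under 0.05 over 26602 features was called. CPM was computed from listed counts without TMM factors. Spans were set beside GENCODE M21 without strand; 97.1% of 6656 matched Ensembl transcripts had the same positions.

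Members and lists were chosen with earlier results of these data known. Transcripts named with log2 changes were mainly the 8 largest called changes each way per comparison (or the 3 smallest p-values), then the 10 most abundant, the 3 longest, models with 0 counts in a group and the 3 gene numbers with most models; other called transcripts were added after their values were seen. Exon numbers, which the naming rule also used, were not analysed here. A transcript that the naming rule selects is not reported here. Host-gene sums and the description of switching were added after the data were seen. The fits were checked on simulated counts. Same-numbered replicates were uncorrelated (-0.054 to 0.052), so the main fit has no block.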

Additional observations from a re-analysis of the deposited data

How the results depend on the processing

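In injury against control, where 45 transcripts were called, 44 were called with RLE scaling, 48 with the libraries of the 2 groups alone, 43 with transcripts as listed and 46 with loci summed. The count was 15 for changes of at least 2-fold, 6 with no filter, 96 with DESeq2 and 38 with library totals from FPKM, and 0 to 51 when a library was left out. In HBO against control, where 27 were called, the count was 13 for at least 2-fold, 6 with no filter, 82 with DESeq2, 6 with the libraries of the 2 groups alone, 16 with library totals from FPKM, and 0 to 23 when a library was left out. Apart from library totals from FPKM (3.14%), the shares of all features in these settings are not given here. With a replicate block the count was 0 in both comparisons; the replicate numbers did not pair the libraries (correlations of -0.054 to 0.052), so this says nothing of effect size. HBO against injury had 0 calls in every setting. Of 1224 refits of the 72 calls over 17 settings, 514 passed and 710 did not, and 0 calls passed in every setting. The cause was not tested. The count of reversals was 0, which is no support, since the refits reuse the libraries on which the calls were selected.

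The log2 ratio of the share of listed counts was -0.11 in injury against control, 0.14 in HBO against injury and 0.03 in HBO against control. As a share of summed FPKM it was -0.40, 0.30 and -0.10, and as a share of the library total it was -0.081 in HBO against control. Leaving out a library gave -0.17 to -0.058, 0.061 to 0.196 and -0.047 to 0.078, negative in HBO against control without HBO replicate 3 (-0.047) or control replicate 3 (-0.015). Of the 468 transcripts, 39 did not pass the filter on low counts. Of those that overlap another MSTRG transcript 57 of 84 were tested, and of those that do not 372 of 384. The part of sequencing depth in this was not tested.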
